A study of Homo sapiens with 6 samples.

Results

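The transcripts of 10 BCL2 family genes were examined in breast cancer cells in which N6AMT1, a methyltransferase gene, had been silenced. The members were chosen by name as regulators of mitochondrial apoptosis, with earlier results of these data known. They are the survival genes BCL2, BCL2L1 (encoding BCL-XL), BCL2L2 (BCL-W) and MCL1, the pore-forming effector genes BAX and BAK1, and the BH3-only genes BID, BAD, BIK and BCL2L11 (BIM). All 10 were found among the 62438 genes of the count table, and all 10 passed the expression filter that left 17320 genes for testing.

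BCL2 family proteins decide whether the outer mitochondrial membrane stays sealed. BAX and BAK1 form pores in that membrane, the survival proteins hold them in check, and the BH3-only proteins respond to stress by binding the survival proteins or by activating BAX and BAK1 directly. Once pores form, cytochrome c reaches the cytosol, the apoptosome assembles and caspases are activated. Breast cancer cells often depend on MCL1 or BCL-XL for survival.

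RNA-seq was performed on a human breast cancer line that the labels give as MDA-MB-453. Its cells had been transfected for 48 h with siRNA at 10 nM, either targeting N6AMT1 (si-N6AMT1, n = 3) or scrambled (si-CN, n = 3). No other allele, drug or stimulus is given for either group, and the sequence of the siRNA and the number of siRNAs were not given in the sources used here. The labels speak of triplicate cells and do not say that the libraries came from separate cultures, so p-values measure the spread between these libraries, which may be technical. The comparison asks which BCL2 family transcripts differ once N6AMT1 is silenced.

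Library totals ran from 19739247 to 21289740 counts, and the biological coefficient of variation over all genes was 1.85%. Despite its name, this spread beyond counting noise may be technical, as the libraries may not come from separate cultures. N6AMT1 stood at 3.07, 3.52 and 2.92 CPM (counts scaled to library size) in the si-N6AMT1 libraries and at 6.91, 6.84 and 6.63 CPM in the si-CN libraries. N6AMT1 thus fell, with a log2 fold change of −1.10 (SE 0.119, FDR = 3.65e-07). Here FDR is the Benjamini-Hochberg adjusted p of edgeR's quasi-likelihood test over all genes tested, and a gene was called at an FDR under 0.05. The label of the cells was checked against breast markers. The luminal keratin KRT8 lay between 593 and 656 CPM and ERBB2 between 51.7 and 54.2 CPM, but the luminal keratin KRT19 had only 8 to 14 counts in a library. The basal keratin KRT17 lay between 2782 and 2866 CPM and KRT5 between 754 and 836 CPM. The summed level of the 10 luminal markers was 1508 to 1549 CPM in si-CN and 1564 to 1585 CPM in si-N6AMT1 libraries, and that of the 3 basal markers was 3681 to 3766 and 3729 to 3816 CPM. These sums are carried by few genes, and single markers moved in opposite directions. Of 9 luminal markers tested, 3 were called higher, CDH1 (log2 fold change 0.54, FDR = 0.00183), KRT8 (0.12, FDR = 0.000126) and KRT18 (0.08, FDR = 0.0150), and 1 lower, EPCAM (−0.12, FDR = 0.000796). Of the 3 basal markers KRT5 (0.11, FDR = 0.000521) and KRT14 (0.18, FDR = 0.000214) were called higher. The part of these marker differences in the results was not tested. Of 6 leukocyte, fibroblast and endothelial markers, 4 stayed under 1 CPM. The sum of all 6 was 46.5 to 47.7 CPM in si-CN and 46.0 to 48.4 CPM in si-N6AMT1 libraries. Nearly all of it came from the fibroblast marker COL1A1, which lay between 44.4 and 46.9 CPM.

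Of the 10 members, 4 were called higher in si-N6AMT1 cells and 0 were called lower. Over all genes tested, 9.78% were called higher and 11.5% lower, 21.3% in all. The 4 were BCL2L1, BAX, BIK and BCL2L11, so they came from each role: 1 of 4 survival genes, 1 of 2 effector genes and 2 of 4 BH3-only genes. At an unadjusted p under 0.05, 5 members were higher and 1 was lower, BAD, in the edgeR fit, beside 15.4% and 16.4% of all genes at that threshold. DESeq2 called 2 members higher and 0 lower. Over all genes it called 796 higher and 1136 lower, fewer than the 1694 and 1993 of the edgeR fit. The edgeR shares are thus no background for the DESeq2 count. The rises were small, from 7.40% for BCL2L1 to 20.0% for BCL2L11. The median log2 fold change of the 10 members was 0.04, beside 0.00 over all genes tested. In bulk RNA, fewer cells with a transcript and less of it per cell cannot be told apart.

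**Figure D1:**
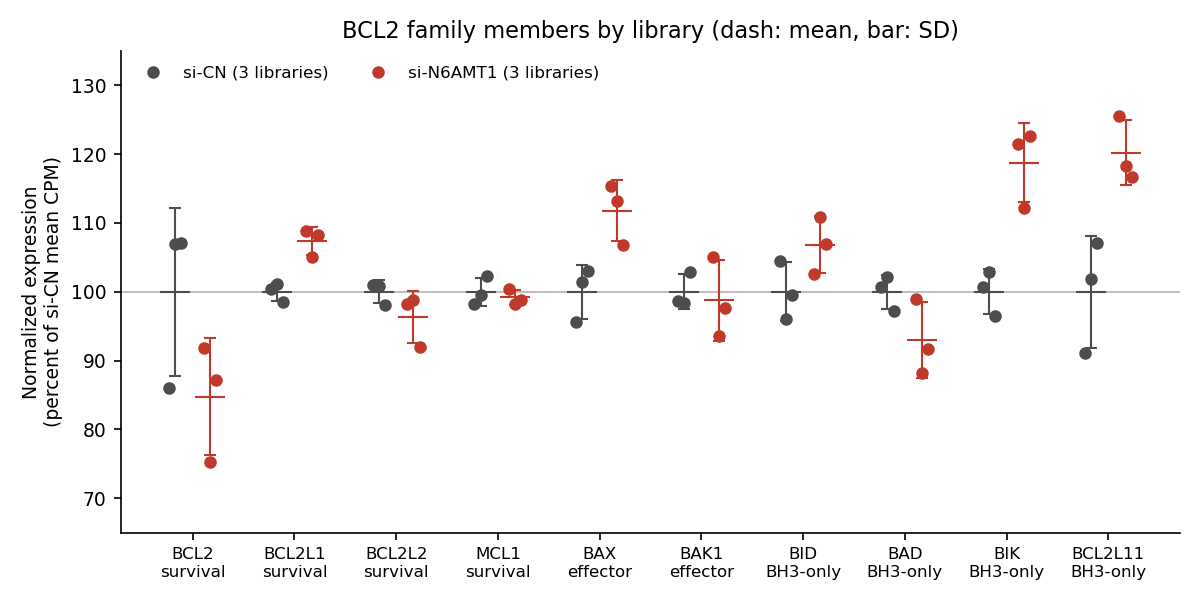
Normalized expression of the 10 members in each library, as a percentage of the gene's mean CPM in si-CN. Points are single libraries, dashes are group means and bars are SDs (n = 3 a group). For BCL2L1, BAX, BIK and BCL2L11 every si-N6AMT1 library lies above every si-CN library, and for MCL1 the groups lie on top of each other.

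Among the survival genes, BCL2L1 rose. BCL2L1 encodes BCL-XL, which binds and restrains BAX, BAK1 and BH3-only proteins at the mitochondrial surface. Its si-CN libraries held 246, 247 and 241 CPM and its si-N6AMT1 libraries 266, 257 and 265 CPM. The groups did not overlap, and the log2 fold change was 0.10 (SE 0.0234, FDR = 0.00244). The call held in each of the 14 alternative fits, with log2 fold changes from 0.08 to 0.12 and an FDR of at most 0.0491. Beside BCL2L1, on the opposite strand, lies the non-coding gene ABALON, which stood at 5.29 CPM in si-CN and 5.56 CPM in si-N6AMT1 cells (FDR = 0.739).

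MCL1, a short-lived survival protein that is made and destroyed rapidly, had by far the most counts of the members. The si-CN libraries held 1027, 1041 and 1069 CPM and the si-N6AMT1 libraries 1049.9, 1028 and 1033 CPM. The ranges overlapped almost wholly. The log2 fold change was −0.01 (SE 0.0206, FDR = 0.745), and over the 14 alternatives it ran from −0.03 to 0.01, with an FDR of at least 0.491. The gene on the opposite strand that overlaps MCL1, ADAMTSL4, rose from a mean of 53.6 to 77.8 CPM (log2 fold change 0.54, SE 0.0341, FDR = 7.97e-11). The libraries were made with a stranded kit, but the strand option of the counting was not given in the sources used here, so shared reads between these overlapping genes cannot be assigned with certainty.

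BCL2, the founding member of the family, was scarce in these cells. Its si-CN libraries held 5.13, 6.39 and 6.40 CPM and its si-N6AMT1 libraries 5.49, 4.50 and 5.21 CPM. The mean was lower in si-N6AMT1 cells, but si-CN replicate 1 lay among the si-N6AMT1 libraries. The log2 fold change of −0.24 (SE 0.120) did not pass the test (FDR = 0.173), and it did not pass in any of the 14 alternatives, in which it ran from −0.34 to −0.16. A library held 92 to 136 BCL2 counts, and the SE was the widest of the members.

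BCL2L2, which encodes the survival protein BCL-W, held 83.4, 83.3 and 80.9 CPM in si-CN and 81.0, 81.5 and 75.9 CPM in si-N6AMT1 libraries. Its ranges met at about 81 CPM, and the log2 fold change of −0.05 (SE 0.0334) did not pass the test (FDR = 0.290). A read-through gene on the same strand, BCL2L2-PABPN1, shares BCL2L2 sequence and fell from a mean of 24.0 to 20.7 CPM (log2 fold change −0.22, FDR = 0.0333). Counts divided between these overlapping genes by estimation are uncertain.

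The effectors differed from each other. BAX, which moves from the cytosol to mitochondria and opens the outer membrane, held 41.1, 43.6 and 44.4 CPM in si-CN and 49.6, 48.7 and 46.0 CPM in si-N6AMT1 libraries. The lowest si-N6AMT1 library lay above the highest si-CN library, and BAX rose by 11.7% (log2 fold change 0.16, SE 0.0426, FDR = 0.00867). Its direction held in all 14 alternatives and its call in 10 of them. The call was lost with DESeq2 (adjusted p = 0.0890), with a correction for GC content (FDR = 0.0565; 0.0867 with the replicate block as well) and without si-CN replicate 1 (FDR = 0.0537). The BAX transcript has a GC content of 60.8%.

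BAK1, the effector that sits in the outer membrane from the start, did not follow BAX. It held 52.3, 52.2 and 54.6 CPM in si-CN and 55.7, 49.6 and 51.8 CPM in si-N6AMT1 libraries. The si-N6AMT1 libraries spread on either side of the si-CN libraries, with a log2 fold change of −0.02 (SE 0.0421, FDR = 0.807). The difference between BAX and BAK1 was followed by their ratio within each library.

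Among the BH3-only genes, BCL2L11 rose furthest. It encodes BIM, a potent activator that binds every survival protein of the family. Its si-CN libraries held 32.6, 36.4 and 38.3 CPM and its si-N6AMT1 libraries 44.9, 42.3 and 41.8 CPM. The lowest si-N6AMT1 library lay above the highest si-CN library, and the mean went from 35.8 ± 2.92 to 43.0 ± 1.68 CPM (SD, n = 3). The log2 fold change of 0.26 (SE 0.0510, FDR = 0.000558) was the largest of the members. It was called in all 14 alternatives, from 0.20 without si-CN replicate 1 to 0.32 without si-CN replicate 3. The non-coding gene MIR4435-2HG overlaps BCL2L11 on the opposite strand and also rose, from a mean of 75.8 to 84.0 CPM (log2 fold change 0.15, SE 0.0310, FDR = 0.00103).

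BIK, a BH3-only protein of the endoplasmic reticulum, held 10.3, 10.5 and 9.83 CPM in si-CN and 12.4, 11.4 and 12.5 CPM in si-N6AMT1 libraries. No library of one group reached the other group, and BIK rose by 18.8% (log2 fold change 0.25, SE 0.0786, FDR = 0.0262). The call held in 8 of 14 alternatives. It was lost with DESeq2 (adjusted p = 0.202), with the replicate block and GC correction (FDR = 0.0672), and without si-N6AMT1 replicate 1 or 3 or si-CN replicate 1 or 3 (FDR = 0.0725, 0.0928, 0.0506 and 0.0967).

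BID links the death receptors to mitochondria after caspase-8 cleaves it. It held 62.1, 57.1 and 59.2 CPM in si-CN and 61.0, 65.9 and 63.6 CPM in si-N6AMT1 libraries, which overlapped at 61 to 62 CPM. The log2 fold change of 0.10 (SE 0.0390) gave an unadjusted p of 0.0227 and did not pass the test (FDR = 0.0888). It passed without si-N6AMT1 replicate 1 (FDR = 0.0403) and without si-CN replicate 1 (FDR = 0.0349).

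BAD, which is held inactive by phosphorylation and 14-3-3 proteins, was the BH3-only gene with a lower mean in si-N6AMT1 cells. It held 35.1, 35.6 and 33.9 CPM in si-CN and 34.5, 30.7 and 32.0 CPM in si-N6AMT1 libraries. The highest si-N6AMT1 library lay inside the si-CN range, and the log2 fold change of −0.10 (SE 0.0485, FDR = 0.138) did not pass the test. The BAD transcript is GC-rich, at 65.8%, and after GC correction it passed, with an FDR of 0.0134 (0.0174 with the replicate block as well). It also passed without si-N6AMT1 replicate 1 (FDR = 0.0428). The gene GPR137, on the opposite strand and overlapping BAD, had a log2 fold change of 0.15 (FDR = 0.135).

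**Figure D2:**
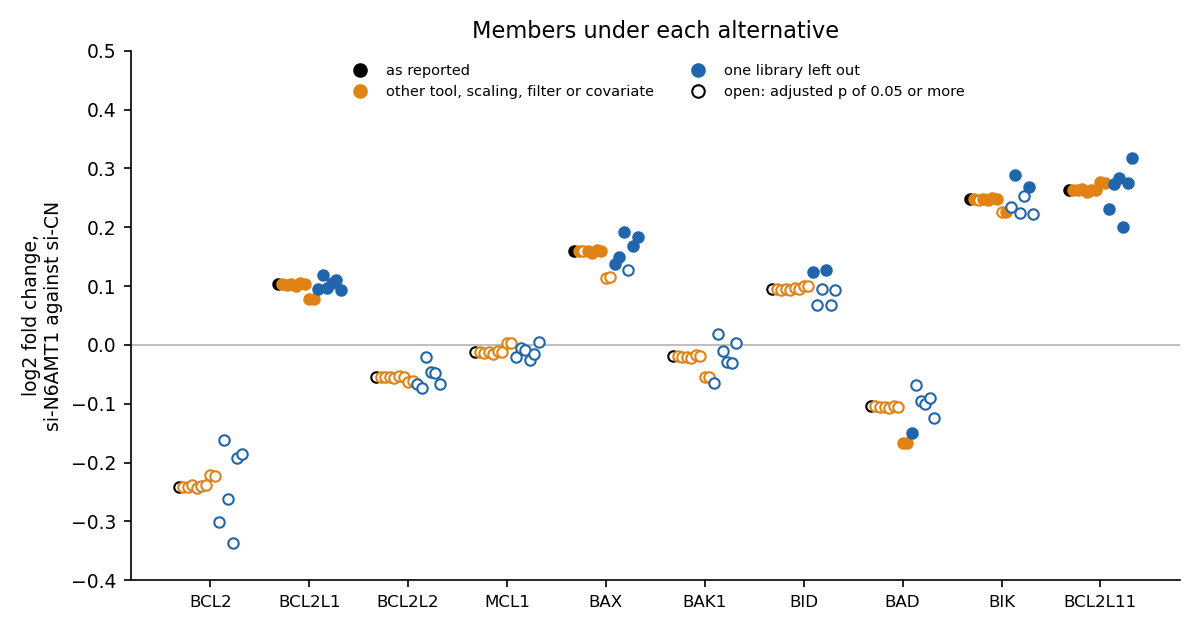
Log2 fold change of each member as reported (black) and under 14 alternatives, with other tools, scalings, filters or covariates in orange and 1 library left out in blue. Open points have an adjusted p of 0.05 or more. BCL2L1 and BCL2L11 are filled throughout, BAX and BIK are filled in 10 and 8 alternatives, and BAD in 3.

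The ranges of the libraries can also be read without a model. In 4 of the 10 members, the same 4 that were called, every si-N6AMT1 library lay above every si-CN library, and in 0 members every one lay below. Over all genes tested, ranges did not overlap in 34.9%, higher in 16.8% and lower in 18.0%. With 3 libraries a group, an exact two-sided permutation test of a single gene cannot give a p below 0.1. Any gene whose ranges do not overlap reaches it, so the p of 0.1 of these 4 members only repeats the ranges.

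Transcript levels per length were compared between members as TPM, computed from the counts and the length of each gene's canonical transcript. MCL1 led, with a si-CN mean of 590.0 ± 18.1 TPM (SD, n = 3), followed by BCL2L1 at 211.9 ± 3.15, BAX at 121 ± 6.17, BAD at 83.6 ± 2.05 and BID at 60.8 ± 1.98 TPM. Then came BAK1 at 54.5 ± 1.81, BCL2L2 at 52.1 ± 0.722, BIK at 23.9 ± 0.769, BCL2L11 at 15.6 ± 1.45 and BCL2 at 1.94 ± 0.257 TPM. No neighbours in this order had overlapping si-CN ranges, although BAK1 and BCL2L2 differed by only 1.04 times. The order depends on the transcript taken for the length. With the median length of a gene's coding transcripts BCL2L1 stood at 139 and BCL2L11 at 40.2 TPM, and with the longest coding sequence BCL2L1 stood at 423 and BCL2 at 7.05 TPM. MCL1 led and BCL2 was last under each choice.

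**Figure D3:**
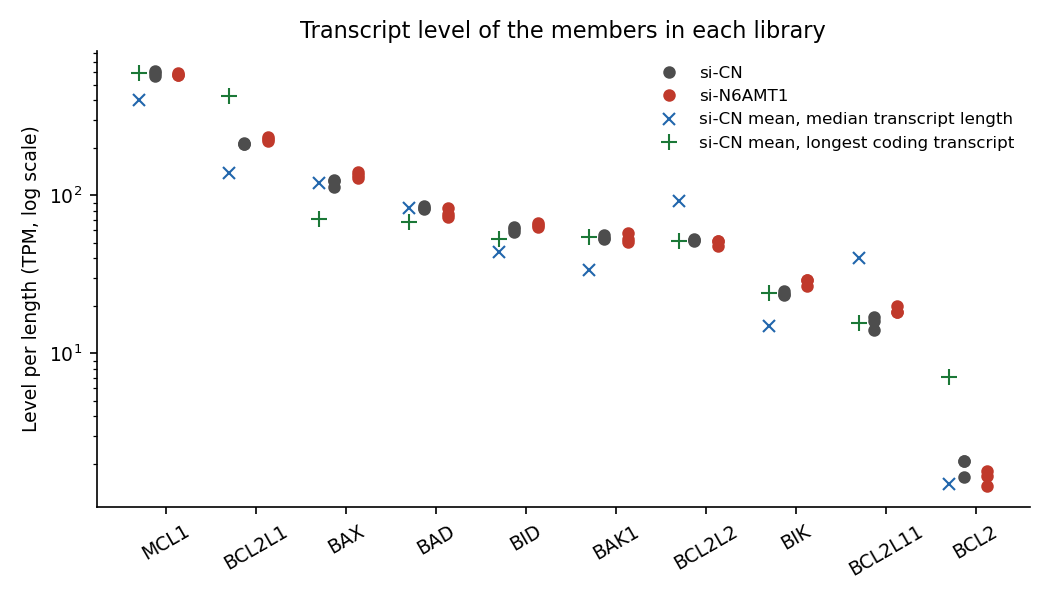
Level per length of the 10 members in each library, in TPM on a log scale, ordered by the si-CN mean. Points are single libraries of the si-CN and si-N6AMT1 groups. Crosses and plus signs give the si-CN mean with the median coding transcript length and with the longest coding transcript. MCL1 is at the top near 590 TPM and BCL2 at the bottom near 2 TPM, and the group differences are small against the span between genes.

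Ratios within a library were taken between a called member and one that was not called, with no test beyond the ranges. Their lack of overlap thus largely repeats that of the called member. No share over other pairs of genes was counted. The BAX to BAK1 ratio of TPM was 2.15, 2.28 and 2.22 in si-CN and 2.43, 2.68 and 2.42 in si-N6AMT1 libraries, so it was higher in each si-N6AMT1 library. The MCL1 to BCL2L1 ratio was 2.73, 2.74 and 2.89 in si-CN and 2.57, 2.61 and 2.54 in si-N6AMT1 libraries, all lower. The MCL1 to BCL2L11 ratio went from a mean of 37.9 ± 2.49 to 31.1 ± 0.895 (SD, n = 3), also without overlap. The size of a ratio rests on the transcript lengths, and with the median coding length the MCL1 to BCL2L11 ratio went from 10.0 to 8.23. Another length multiplies such a ratio by the same factor in every library, so it cannot change whether the groups overlap.

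Summed by role, the survival genes made up 70.4% of the members' TPM in si-CN and 69.5% in si-N6AMT1 cells, and the effectors 14.4% and 15.2%. Neither pair of ranges overlapped, but with the longest coding sequence the effectors made up 9.23% and 9.53%, with overlapping ranges. The share of the BH3-only genes was 15.1% and 15.3%, with overlapping ranges. The ratio of survival to BH3-only TPM was 4.65 ± 0.106 in si-CN and 4.55 ± 0.0328 in si-N6AMT1 cells (SD, n = 3), and its ranges overlapped. With the median coding length this ratio was 3.46 and 3.34, lower in each si-N6AMT1 library. Inside the BH3-only genes the composition moved more than the sum. BCL2L11 went from 8.51% to 9.90% of their TPM and BIK from 13.0% to 14.9%, while BAD went from 45.4% to 40.9%, each without overlap between the groups. With the median coding length BCL2L11 went from 22.0% to 25.3%, BIK from 8.15% to 9.27% and BAD from 45.8% to 40.8%, again without overlap. Shares of the same sum depend on each other, so these shifts, and those by role, are not separate results. The lower share of BAD partly repeats the rises of the called BCL2L11 and BIK, while the CPM ranges of BAD itself overlapped. No share over other sets of genes was counted.

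The wider family was counted in a list of 15 further genes, of which 12 passed the expression filter. BCL2A1, BCL2L10 and BCL2L14 did not pass, and BCL2A1 had 0 counts in every library. Of the 12, 4 were called higher and 1 lower, with a median log2 fold change of 0.06. Together with the members, 8 of 22 family genes tested were called higher and 1 lower, beside the 9.78% and 11.5% of all genes.

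BCL2L12 rose most in the wider family, from 22.5, 21.7 and 21.7 CPM in si-CN to 26.4, 25.9 and 28.7 CPM in si-N6AMT1 libraries (log2 fold change 0.30, SE 0.0553, FDR = 0.000387). BNIP3, a mitochondrial protein of hypoxia and mitophagy, rose from 504, 502 and 499.8 to 534, 542 and 548 CPM (log2 fold change 0.11, SE 0.0205, FDR = 0.000398). Its close relative BNIP3L fell, from 315, 306 and 306 to 294, 295 and 291 CPM (log2 fold change −0.08, SE 0.0222, FDR = 0.0152). The groups did not overlap in any of these genes, although the BNIP3L call was lost in 4 of 14 alternatives. With GC correction its log2 fold change was −0.03 (FDR = 0.312; 0.409 with the replicate block as well), and the call was also lost without si-N6AMT1 replicate 3 (FDR = 0.0646) and without si-CN replicate 1 (FDR = 0.0681).

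PMAIP1, which encodes NOXA, the BH3-only partner of MCL1, rose from 194, 187 and 191 to 201, 204 and 202 CPM (log2 fold change 0.08, SE 0.0239, FDR = 0.0131). Its call was lost with DESeq2, without si-N6AMT1 replicate 2 (FDR = 0.0532) and without si-CN replicate 2 (FDR = 0.0848), and with GC correction its log2 fold change was 0.13. BCL2L13 rose from a mean of 64.5 to 69.0 CPM (log2 fold change 0.10, FDR = 0.0369), and this call was lost in 9 of 14 alternatives, among them each of the 6 with 1 library left out (FDR from 0.0581 to 0.111). The BH3-only genes BBC3 (PUMA), BMF and HRK had log2 fold changes of 0.14, 0.03 and −0.12 and did not pass the test (FDR = 0.318, 0.796 and 0.494). BOK, the third pore-forming relative, was lower in every si-N6AMT1 library, at 16.8, 16.7 and 17.2 against 18.2, 18.2 and 18.9 CPM, but did not pass either (log2 fold change −0.13, FDR = 0.154). With GC correction BOK passed, at a log2 fold change of −0.19 (FDR = 0.0301; 0.0454 with the replicate block as well). BNIP1, BNIP2 and BCL2L15 had log2 fold changes of −0.06, 0.00 and 0.25 and were not called.

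**Figure D4:**
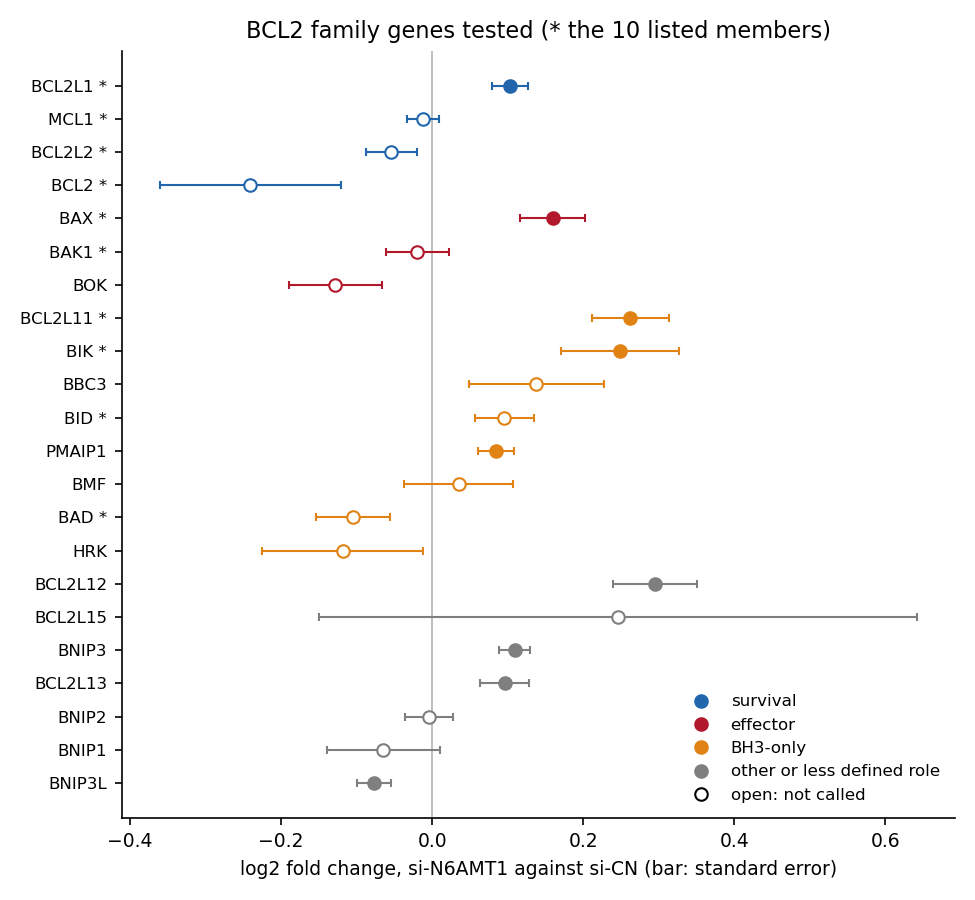
Log2 fold change with its standard error for the 22 BCL2 family genes tested, si-N6AMT1 against si-CN, with asterisks on the 10 members. Colours give the role, filled points are called genes and open points are genes not called. BCL2L12, BCL2L11 and BIK have the largest called rises, between 0.25 and 0.30, and BNIP3L is the 1 gene called lower.

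Genes that act before, beside or after the BCL2 family were counted in 6 more lists. With the wider family these 7 lists named 90 genes, of which 86 were tested, 16 called higher and 20 called lower. The median log2 fold change over them was 0.00. With any 1 library left out, 8 of the 16 and 13 of the 20 kept their call. For comparison with these counts and those of each list below, 9.78% of all genes tested were called higher and 11.5% lower. At an unadjusted p under 0.05 in the edgeR fit, 15.4% of all genes were higher and 16.4% lower.

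Downstream of the pore, 3 of 14 apoptosome and caspase genes were called lower and 0 higher. At an unadjusted p under 0.05, 2 of them were higher and 3 lower in the edgeR fit. PARP1, a DNA repair enzyme that caspases cleave, fell from 281, 278 and 280.2 to 246, 232 and 235 CPM (log2 fold change −0.24, SE 0.0245, FDR = 2.01e-07). CYCS, which encodes cytochrome c, fell from a mean of 251 to 233 CPM (log2 fold change −0.10, FDR = 0.00872), a call lost without si-N6AMT1 replicate 1 (FDR = 0.0658). APAF1, the scaffold of the apoptosome, and the initiator CASP9 had log2 fold changes of 0.06 and −0.06 and were not called (FDR = 0.357 and 0.768).

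Of 7 genes for inhibitors of caspases, 3 were called lower and 1 higher. BIRC5, which encodes survivin, a protein also needed for cell division, fell from 80.6, 76.8 and 78.1 to 70.6, 73.2 and 66.5 CPM (log2 fold change −0.16, SE 0.0363, FDR = 0.00191). XIAP, a direct inhibitor of caspases, fell from 68.1, 69.9 and 69.7 to 62.2, 64.9 and 60.4 CPM (log2 fold change −0.15, SE 0.0352, FDR = 0.00359). BIRC6, a large member of the same family, fell as well (log2 fold change −0.13, FDR = 0.00216). NAIP rose (log2 fold change 0.26, FDR = 0.0223), a call lost in 4 of 14 alternatives. These were DESeq2 and the fits without si-N6AMT1 replicate 2, si-CN replicate 2 or si-CN replicate 3 (FDR = 0.159, 0.0643 and 0.0684).

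In the death receptor pathway, 4 of 14 genes tested were called higher and 1 lower. FAS, the receptor of FAS ligand, fell from 39.0, 38.5 and 40.8 to 30.4, 32.2 and 33.5 CPM (log2 fold change −0.30, SE 0.0465, FDR = 4.47e-05). TNFRSF21 (death receptor 6) rose from 152, 154 and 154 to 193, 199 and 199 CPM (log2 fold change 0.36, SE 0.0246, FDR = 2.90e-10). TNFRSF1A, the adaptor FADD and the ligand gene TNFSF10 rose by 10.6%, 17.2% and 8.26%. The TNFRSF1A call held with any 1 library left out. The FADD call was lost without si-N6AMT1 replicate 1 or 2 or si-CN replicate 1 or 2 (FDR from 0.0725 to 0.122), and the TNFSF10 call without si-N6AMT1 replicate 2 or 3 or si-CN replicate 1 or 2 (FDR from 0.100 to 0.151). CASP8, whose product cleaves BID, had a log2 fold change of −0.06 and was not called (FDR = 0.467).

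Among 9 outer membrane partners, 2 were called in each direction. VDAC1, the channel through which metabolites cross the outer membrane, rose from 481, 457 and 459.6 to 509, 514 and 516 CPM (log2 fold change 0.14, SE 0.0225, FDR = 7.49e-05). VDAC2, the isoform that recruits BAK1, stood at a mean of 271 CPM in both groups (log2 fold change 0.00, FDR = 0.973). The fusion gene MFN2 fell from 187, 188 and 182 to 162, 159 and 161 CPM (log2 fold change −0.21, SE 0.0245, FDR = 1.08e-06). OPA1, which shapes the inner membrane, fell by 12.1%, and the fission adaptor MFF rose by 8.77%. The MFF call was lost without si-N6AMT1 replicate 2 or 3 or si-CN replicate 3 (FDR from 0.0647 to 0.0896).

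Of 10 genes in the turnover of MCL1 and BIM proteins, 4 were called lower and 1 higher. Of the 6 ubiquitin ligase genes, 4 were called lower and 0 higher, beside 11.5% and 9.78% of all genes tested. At an unadjusted p under 0.05 in the edgeR fit the counts were again 4 and 0, beside 16.4% and 15.4%. HUWE1, also known as MULE for its action on MCL1, fell from 562, 578 and 581 to 529, 518 and 508 CPM (log2 fold change −0.15, SE 0.0221, FDR = 2.88e-05). FBXW7, BTRC and MARCHF5 fell by 15.0%, 14.1% and 6.80%. The HUWE1 call held with any 1 library left out. The FBXW7 call was lost without si-CN replicate 2 (FDR = 0.0555), the BTRC call without si-N6AMT1 replicate 2 or 3 or si-CN replicate 1 or 3 (FDR from 0.0537 to 0.134), and the MARCHF5 call without si-N6AMT1 replicate 1 or 3 or si-CN replicate 1 or 3 (FDR from 0.0508 to 0.102). GSK3B, a kinase that marks MCL1 for breakdown, rose (log2 fold change 0.08, FDR = 0.0388). Its call was lost in 9 of 14 alternatives, among them each of the 6 with 1 library left out (FDR from 0.0597 to 0.129). MCL1 and BCL2L11 transcripts do not measure the protein stability in which these genes act.

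The kinases and anchors of BAD and BIM were called in both directions, 6 of 20 lower and 4 higher. Both dynein light chain genes, DYNLL1 and DYNLL2, whose products tether BIM and BMF to the cytoskeleton, rose by 11.0% and 12.8% (FDR = 0.000448 and 0.000132). Of the 7 genes for 14-3-3 proteins, which hold phosphorylated BAD in the cytosol, SFN rose from 676, 672 and 671 to 747, 746 and 759 CPM (log2 fold change 0.16, SE 0.0198, FDR = 3.00e-06) and YWHAG by 4.13%. The SFN call held with any 1 library left out and the YWHAG call was lost with each (FDR from 0.0528 to 0.142). YWHAQ fell from 439, 433 and 435 to 373, 383 and 384 CPM (log2 fold change −0.20, SE 0.0214, FDR = 3.83e-07) and YWHAZ by 10.2%. Of 11 kinase genes, 4 were called lower, MAPK8 and PIM1 among them, and 0 higher, beside 11.5% and 9.78% of all genes tested. At an unadjusted p under 0.05 in the edgeR fit the counts were 7 lower and 0 higher, beside 16.4% and 15.4%. The MAPK8 call was lost without si-N6AMT1 replicate 1 (FDR = 0.0636).

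**Figure D5:**
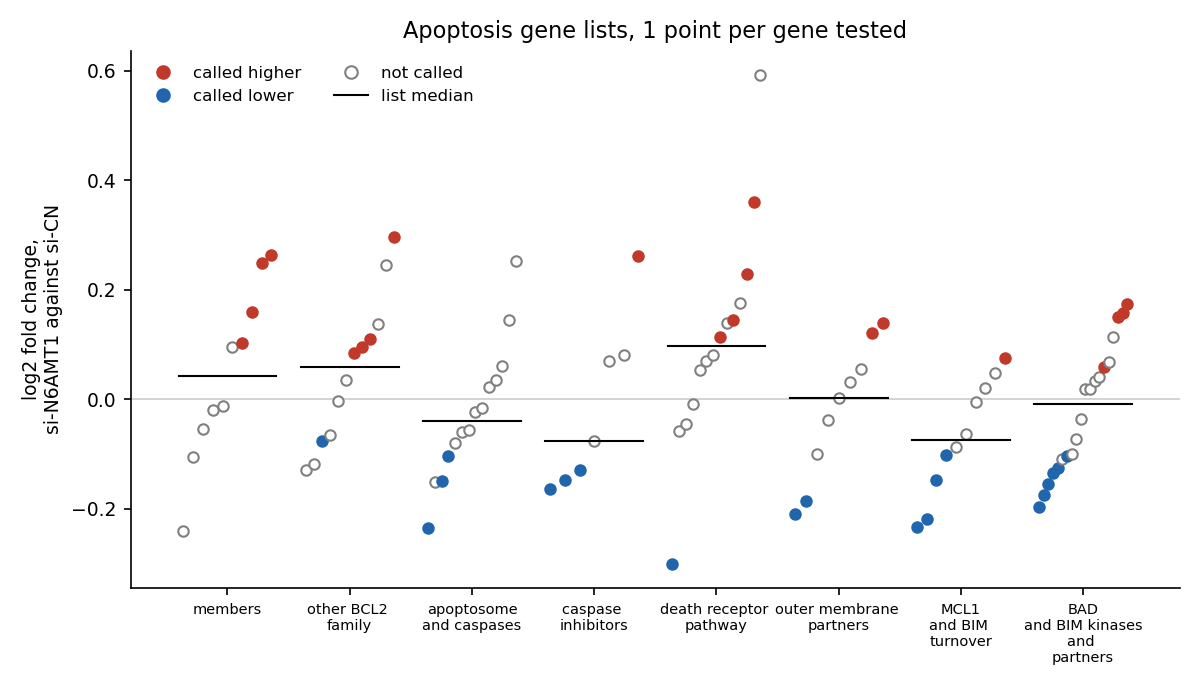
Log2 fold change of each gene tested in the member list and in 7 lists of related apoptosis genes, 1 point a gene, filled where called, with a line at each list's median. The medians lie between −0.08 and 0.10. The 4 called members lie above 0, and 4 of the 5 called genes of MCL1 and BIM turnover lie below it.

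The 3′ UTRs of these genes were searched on the transcript strand for TTCACAT and TCACATA, which overlap in TTCACATA and were then counted as 1 site. These letters had been picked out in an earlier scan of the same fold changes, so the shares describe these genes and are no independent evidence. A site was present in 22.5% of 13085 protein-coding genes tested, in 44.1% of those called lower and in 11.9% of those called higher. Of the members, 1 of 10 had a site, BCL2, and the 4 members called higher had none. In the wider family 5 of 12 genes had a site, of which 0 were called lower and 1 higher, BCL2L13. In the 7 lists, 23 of 85 genes had a site, of which 10 were called lower and 2 higher, BCL2L13 and DYNLL2, the latter with 2 sites. Of the 62 without a site, 9 were called lower and 14 higher. Over all protein-coding genes tested, 835 of 2939 with a site were called lower and 178 higher. Of the 10146 without a site, 1059 were called lower and 1317 higher.

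The sites below are shown because BCL2 is the only member with one, BNIP2 carries the longer form and was not called, XIAP, MFN2 and YWHAQ were called lower, and DYNLL2 was called higher. Each line is 30 bases of the annotated 3′ UTR on GRCh37, read 5′ to 3′ on the transcript strand, with the searched letters in capitals. The windows lie at chr18:60792826-60792855 (minus strand) for BCL2, chr15:59951993-59952022 (minus) for BNIP2, chrX:123041424-123041453 and chrX:123044282-123044311 (plus) for XIAP, chr1:12073048-12073077 (plus) for MFN2, chr2:9724840-9724869 (minus) for YWHAQ, and chr17:56169617-56169646 and chr17:56172725-56172754 (plus) for DYNLL2.
BCL2: ttgaagagggaTTCACATctgcatcttaac
BNIP2: gctatgaaaaaTTCACATAaagcacgtaag
XIAP, upstream site: aatctccccaaTCACATAatttgttttgtg
XIAP, downstream site: ccagcattagtTTCACATgatatacccttt
MFN2: gtgatgtcctgTTCACATAcctgcttgtat
YWHAQ: tggctcctgtaTCACATAcggaggtcttgt
DYNLL2, upstream site: tgaggccacagTTCACATttcatcagggat
DYNLL2, downstream site: taaatgacacaTTCACATgatacattattc

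The BCL2 site begins 3014 bases into a 3′ UTR of 5279 bases, the longest of the members, and the transcript stood at the lowest level of the members. BCL2L11 has a 3′ UTR of 4213 bases with no site and was called higher. BNIP2 had the 8-base form and a log2 fold change of 0.00 (FDR = 0.953). A match describes the letters only, and no match says only that these letters are not in the annotated 3′ UTR.

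The members lie on 9 chromosomes of GRCh37. The survival genes are at chr18:60790579-60987361 (BCL2), chr20:30252255-30311792 (BCL2L1), chr14:23767999-23780960 (BCL2L2) and chr1:150533371-150552214 (MCL1). The effector genes are at chr19:49458072-49465055 (BAX) and chr6:33540324-33548070 (BAK1). The BH3-only genes are at chr22:18216904-18257536 (BID), chr11:64037302-64052176 (BAD), chr22:43506756-43525718 (BIK) and chr2:111876955-111926021 (BCL2L11). BID and BIK share chromosome 22 and lie far apart on it.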

How the data were processed

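Poly(A) RNA-seq libraries were compared, 3 with si-N6AMT1 and 3 with si-CN, grouped by the sample labels. Reads were trimmed by the authors with Trim Galore, quantified with kallisto v0.46.0 on GENCODE v33 transcripts (hg19), and gathered by gene. The authors deposited estimated counts (expected counts), unnormalized and already whole. Such estimates split reads between similar transcripts, so counts of overlapping genes are uncertain. All per-sample columns matched a sample by name.

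Counts were tested with edgeR v4.0.16 (R v4.3.3), with a minimum count of 10 in the expression filter, TMM scaling, and the quasi-likelihood test without covariates. P-values were adjusted by Benjamini-Hochberg across the 17320 genes (FDR), with a threshold of 0.05. The SE was obtained from the fold change and the F statistic, as |log2 fold change|/√F. CPM values are TMM-scaled. Totals of 19739247 to 21289740 counts a library set the precision. Symbols, lengths, GC content and 3′ UTRs (at least 50 bases) came from the canonical transcripts of GENCODE v44 lifted to GRCh37. Of 62438 identifiers, 62149 were matched, and 289 have no length or TPM. Canonical lengths replaced those of the longest coding sequence after the values had been seen, because the latter left BCL2L1 without a 3′ UTR.

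The members and lists were chosen with earlier results of these data known. Named genes are the members, N6AMT1, the wider family that passed the filter, the smallest FDR in each direction of each list, and PARP1, CASP9, APAF1, CASP8, XIAP and VDAC2. A few genes of the lists are not reported here. Others were named after their values had been seen, as were the genes that overlap members. Of 121 listed symbols, 1 (PECAM1) was not matched.

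Alternatives were RLE size factors, DESeq2 v1.42.0, limma-voom (limma v3.58.1), no filter, library sizes without mitochondrial genes, a block on replicate number, that block joined with a GC correction (lowess span 0.3), and each library left out. GC correction alone was chosen after seeing the data. The procedure was tested on simulated counts with changes of 1.5-fold. The rises of the called members were smaller, so this test does not show how well changes of their size are found. Protein sequences were not used here.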

Additional observations from a re-analysis of the deposited data

How the results depend on the processing

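Over 14 alternatives, the direction of the 4 called members held in all, and the calls of BCL2L1 and BCL2L11 held in all. For the 10 members, 120 of the alternative values kept direction and side of the threshold, 10 lost the call, 5 gained one and 5 turned sign. For the named genes together these numbers were 497, 39, 7 and 16, and each gene that turned sign was one that was not called. No alternative moved the median of all genes outside −0.0054 to 0.0053. DESeq2 called 1136 genes lower and 796 higher (1993 and 1694 as reported), 2 members higher and 8 listed genes higher. Same-numbered libraries did not deviate together (correlations −0.118, −0.0895 and 0.00566 over 10096 genes). Libraries of unlike number had correlations from −0.0269 to 0.111. Deviations within a group of 3 sum to 0, so these correlations cannot tell whether the libraries were prepared in pairs. With the replicate block, 1803 genes were lower and 1522 higher, with 4 members higher and 0 lower and 19 listed genes lower and 12 higher. With the replicate block and GC correction, 1 member was lower (BAD) and 2 higher, and the log2 fold changes of MCL1 and BNIP2 were 0.0030 and 0.0399. With GC correction alone, 1 member was lower (BAD), and these were 0.0028 and 0.0401. With no filter the log2 fold change of VDAC2 was −0.0013. Leaving out each library gave 0 to 1 members lower, 3 to 4 higher, 17 to 19 listed genes lower and 9 to 12 higher, 1540 to 1816 genes lower and 1295 to 1523 higher, and a log2 fold change of −1.18 to −1.04 for N6AMT1. With a library left out, log2 fold changes that turned sign ran over −0.0164 to 0.0706 for BMF, −0.0133 to 0.0092 for BNIP2, −0.0646 to 0.0182 for BAK1, −0.0112 to 0.0225 for VDAC2, −0.0251 to 0.0052 for MCL1 and −0.147 to 0.0017 for CASP9. The cause of these changes was not tested. Among the members depth limits BCL2 most, which had 92 to 136 counts in a library.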
